A study of Homo sapiens with 4 samples.

Results

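The genes described here encode the translation initiation factors of the human cell, the proteins that place a ribosome on the start codon of an mRNA. They were chosen by name as every row of the count table whose gene symbol begins with EIF1, EIF2, EIF3, EIF4, EIF5 or EIF6. The eIF2α kinases EIF2AK1 to EIF2AK4 and read-through symbols that join a pair of genes with a hyphen were left out. The rule found 52 genes among the 20263 rows of the table, and no expression value entered it.

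The libraries came from MDA-MB-231, an established human breast cancer cell line of the triple-negative kind. The cells had been given Rib_CA, which the series title presents as a derivative of the CDK4/6 inhibitor ribociclib, for 24 h, or had been left with DMSO, the solvent control. There were 2 libraries in each group, and the dose of Rib_CA was not among the labels. The labels for the untreated arm read both as DMSO and as without Rib_CA, and the group is called DMSO here. The labels describe neither separate cultures nor batches, and every p-value rests on a library-to-library spread that may be technical.

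Translation initiation begins with a small ribosomal subunit that carries eIF1, eIF1A, eIF3, eIF5 and the ternary complex of eIF2, GTP and initiator tRNA. The cap-binding complex eIF4F, made of eIF4E, eIF4G and eIF4A, brings that subunit to the capped end of an mRNA, from which it scans to a start codon. The GTPase eIF5B then joins the large subunit. The amount of active eIF4F is set in large part by mTORC1 through the 4E-binding proteins, and the amount of ternary complex is set by phosphorylation of eIF2α. These controls act on proteins, and the libraries measured mRNA only.

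Totals ran from 37772266 to 38865103 counts in Rib_CA libraries and from 34774542 to 37754168 counts in DMSO libraries. Mitochondrially encoded genes took 5.79% and 3.13% of counts in Rib_CA libraries, against 8.68% and 21.7% in DMSO libraries. Levels are in CPM, a gene's count scaled to a fixed library total. Marker sums are without TMM scaling, which adds a factor per library, and CPM of single genes below are TMM-scaled. The markers VIM, CD44, KRT8, KRT18 and EGFR summed to 5900 and 6040 CPM in Rib_CA libraries and to 5530 and 5660 CPM in DMSO libraries. VIM was the highest of them, at 3587 to 4221 TMM-scaled CPM. The fit, on TMM-scaled counts, gave 1 of these 5 genes a positive and 4 a negative log2 fold change. The leukocyte, endothelial and fibroblast markers each summed to 1.47 CPM or less in every library, with CD3E and DCN at 0 counts throughout. The initiation factor genes together took 1.16% and 1.07% of counts in Rib_CA libraries and 1.08% and 0.936% in DMSO libraries. Without mitochondrially encoded genes, those shares were 1.23% and 1.11% in Rib_CA libraries and 1.18% and 1.20% in DMSO libraries.

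After Rib_CA, 5 initiation factor genes fell, 1 rose and 43 did not pass the test, so most of the machinery was not called at the mRNA level. The genes that fell were EIF5B, the GTPase of subunit joining, EIF3A and EIF3M of the eIF3 complex, EIF4G3, a scaffold of eIF4F, and EIF2A, a factor of non-canonical initiation. The gene that rose was EIF1, the factor that guards start codon choice. The falls ran from 2.19-fold to 5.07-fold, and EIF1 was 2.95-fold higher. A gene was called when its p from edgeR's quasi-likelihood test, adjusted by the Benjamini-Hochberg method over all 13667 genes tested, was under 0.05. That test called 7.13% of all genes tested, 2.01% as higher and 5.11% as lower, beside 6 of the 49 initiation factor genes tested (12.2%). Both Rib_CA libraries lay beyond both DMSO libraries for 31 of the 49 genes, 13 above and 18 below, against 58.8% of all genes tested, 30.4% above and 28.4% below. The median log2 fold change of the 49 genes was -0.04, against 0.03 over all genes tested. Scaling by total counts alone moved the median of all genes by 0.20 and gave the initiation factor genes a median of 0.15. In libraries from bulk cells, fewer cells with a transcript and less of it in each cell cannot be told apart.

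These calls depended on the correction, the libraries and the scaling used. After a correction for the GC content and length of transcripts, which ran with the fold changes of all genes, edgeR's quasi-likelihood test called no gene (0% of 13651 tested), with 3422 of all genes and 20 of the 49 initiation factor genes at an unadjusted p under 0.05. Each of the 6 genes kept its direction. Without the correction, 3879 of all genes (28.4%) and 17 of the 49 initiation factor genes had an unadjusted p under 0.05. Scaling by total counts alone ended the calls of EIF2A and EIF3M. EIF5B alone among the 6 genes was called in all 4 fits that left out 1 library. The other 5 genes were called without either Rib_CA library and not called without either DMSO library, where the sizes changed little. Counts of calls moved with the library left out, among initiation factor genes as among all genes tested. In both, fewer genes were called without either DMSO library and more without either Rib_CA library. With mitochondrially encoded genes left out of the table, 1 initiation factor gene was called higher and 5 lower, as with them. DESeq2, which called 1043 of all genes as higher and 1514 as lower, called these 6 genes and also EIF6, EIF4EBP1, EIF3H, EIF3E, EIF3L, EIF4G2, EIF2B2 and EIF2B3, while limma-voom called all of the 6 genes except EIF3M.

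**Figure D1:**
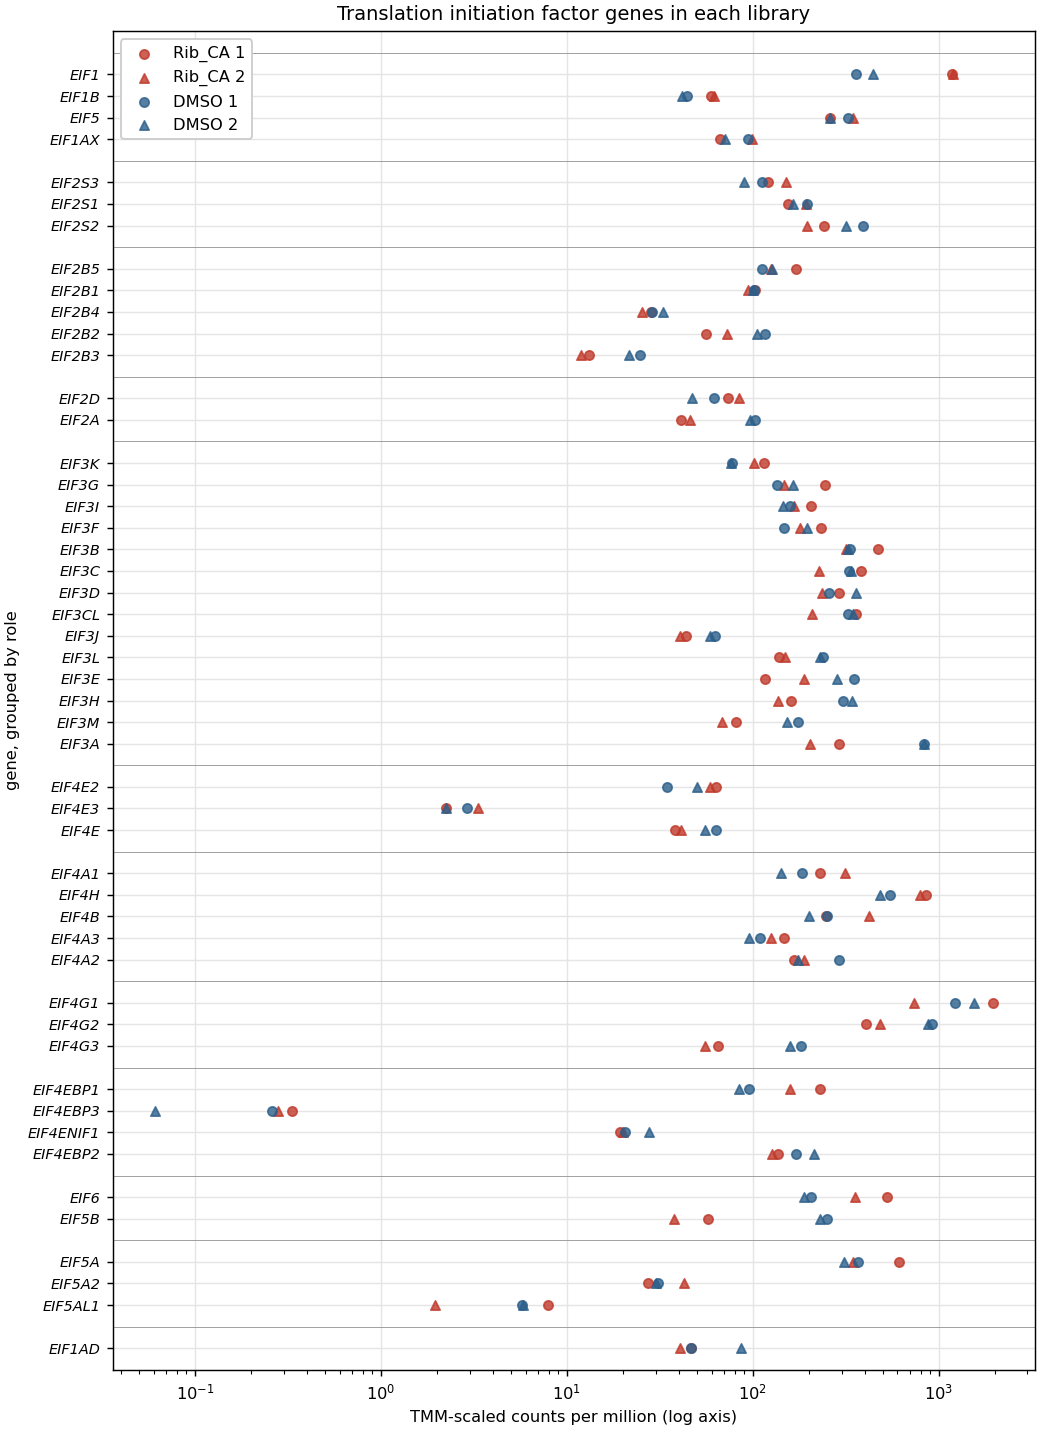
TMM-scaled CPM (log axis) of the 49 tested genes in each of the 4 libraries, with genes grouped by role down the page. Rib_CA libraries are red and DMSO libraries blue, and for 31 genes the red pair lies wholly to one side of the blue pair.

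**Figure D2:**
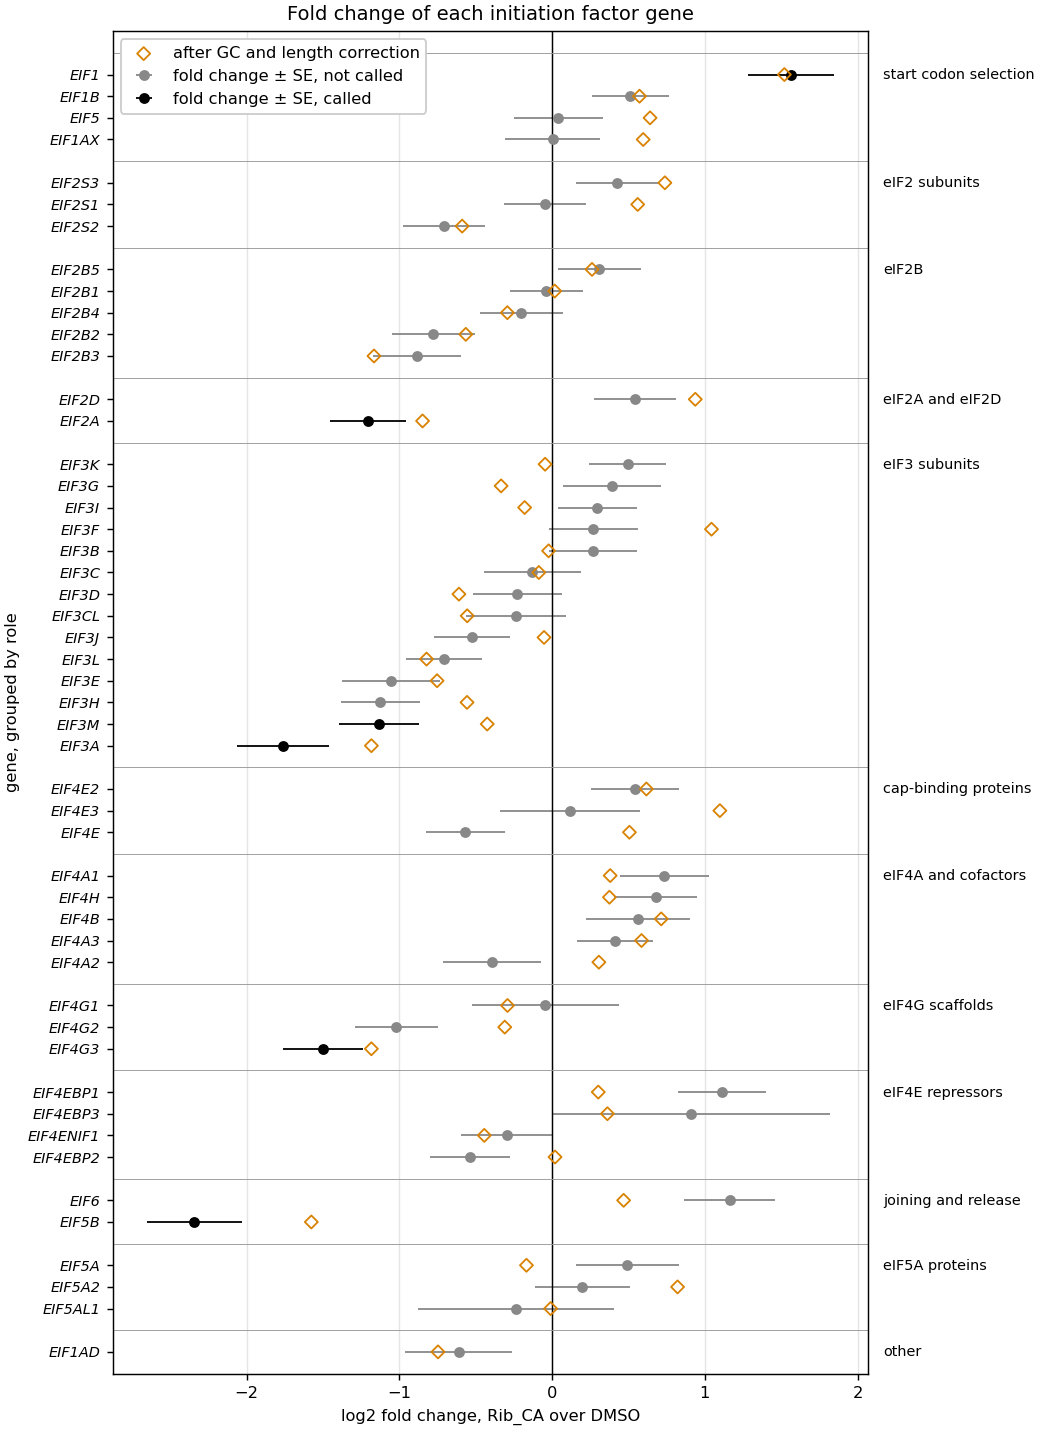
Log2 fold change of Rib_CA over DMSO with its standard error for the 49 tested genes (circles, black where called) and the same value after the GC and length correction (open diamonds). The 6 called genes run from -2.34 for EIF5B to 1.56 for EIF1, and the diamonds of the 5 genes that fell all lie nearer to 0.

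Among the genes of scanning and start codon selection, EIF1 rose and the other 3 tested genes were not called. EIF1 binds the small subunit near its P site, opposes pairing with a wrong start codon and leaves when the right one is met. EIF1 (ENSG00000173812, chr17:41688885-41692668, GRCh38, plus strand) had 1176 and 1190 TMM-scaled CPM in Rib_CA libraries, against 359 and 442.3 in DMSO libraries. The Rib_CA libraries differed from each other by little and both lay well above the DMSO pair, with means of 1183 ± 9.62 in Rib_CA and 401 ± 58.9 in DMSO (SD, n = 2 each). The log2 fold change was 1.56 ± 0.28 (SE) with an adjusted p of 0.0315 by edgeR's quasi-likelihood test. After the GC and length correction it was 1.52 with an adjusted p of 0.0814, a nearly equal size. Without DMSO replicate 1 the log2 fold change was 1.41 (adjusted p = 0.296), and without DMSO replicate 2 it was 1.72 (adjusted p = 0.160).

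EIF1B, a close copy of EIF1, had 59.8 and 62.2 CPM in Rib_CA libraries and 44.0 and 41.5 CPM in DMSO libraries. The pairs lay apart, but its log2 fold change of 0.51 ± 0.25 did not pass (adjusted p = 0.236 by edgeR's quasi-likelihood test). Reads shared between EIF1 and EIF1B could have been split between them, since the counting of such reads is not given in the sources used here. EIF5, the GTPase-activating protein of eIF2, had 258.7 and 344.8 CPM in Rib_CA libraries and 326.2 and 260.6 CPM in DMSO libraries, which overlap. EIF1AX, which encodes eIF1A and aids scanning, had 66.2 and 99.3 CPM in Rib_CA libraries and 94.4 and 70.8 CPM in DMSO libraries. Its log2 fold change of 0.00 ± 0.31 was the smallest in size among these genes. After the GC and length correction EIF1AX was at 0.60, EIF5 at 0.64 and EIF1B at 0.57. The median of the 4 tested genes was 0.28 before that correction and 0.62 after it. With it, all 4 had an unadjusted p under 0.05 by edgeR's quasi-likelihood test, against 25.1% of all genes, and none was called. EIF1AY, the Y-linked copy, did not pass the filter on low counts.

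The 250 bases before the RefSeq start sites of EIF1 and EIF5B are shown because these genes had the highest and the lowest log2 fold change of the set. The sequences are from RefSeq on GRCh38.p14, plus strand, at chr17:41688635-41688884 for EIF1 and chr2:99337139-99337388 for EIF5B. Capitals mark CCAAT on either strand, which in EIF1 occurs on both strands in an overlap, and EIF5B holds no match to the 6 motifs searched.
EIF1: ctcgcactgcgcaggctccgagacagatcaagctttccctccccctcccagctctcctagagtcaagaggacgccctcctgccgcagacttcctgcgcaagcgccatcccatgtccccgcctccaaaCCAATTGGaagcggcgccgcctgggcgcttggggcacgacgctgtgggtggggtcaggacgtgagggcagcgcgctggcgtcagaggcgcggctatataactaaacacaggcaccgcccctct
EIF5B: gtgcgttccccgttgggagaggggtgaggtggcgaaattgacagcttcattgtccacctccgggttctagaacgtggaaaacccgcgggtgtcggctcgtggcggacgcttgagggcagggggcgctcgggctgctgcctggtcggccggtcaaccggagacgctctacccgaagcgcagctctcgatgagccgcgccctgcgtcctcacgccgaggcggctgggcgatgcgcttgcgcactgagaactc
The GC content of these windows was 65.6% for EIF1 and 67.2% for EIF5B, while that of the longest transcript was 46.4% for EIF1 and 38.6% for EIF5B.

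No gene for an eIF2 subunit or for its exchange factor eIF2B was called by edgeR, with 3 of the 8 genes tested at an unadjusted p under 0.05 (EIF2S2, EIF2B2 and EIF2B3), against 28.4% of all genes tested. EIF2B2 and EIF2B3 were called as lower by DESeq2, which called 18.7% of all genes, and limma-voom called none. EIF2S1 encodes eIF2α, whose phosphorylation lowers the supply of ternary complex. It had 154.8 and 192.2 CPM in Rib_CA libraries and 194.5 and 164.0 CPM in DMSO libraries, which overlap (log2 fold change -0.05 ± 0.27, and 0.56 after the GC and length correction). EIF2S2, the β subunit, had 240.0 and 195.3 CPM in Rib_CA libraries, against 393.7 and 317.1 CPM in DMSO libraries. EIF2S3, the GTP-binding γ subunit, had 120.7 and 150.1 CPM in Rib_CA libraries and 111.9 and 89.8 CPM in DMSO libraries. EIF2S2 thus lay below and EIF2S3 above in both libraries, and neither passed (adjusted p = 0.151 and 0.346 by edgeR's quasi-likelihood test). EIF2S3B, a near-identical copy of EIF2S3, had 7 and 5 counts in Rib_CA libraries and 8 and 7 counts in DMSO libraries and was not tested.

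The 5 subunits of eIF2B, which reloads eIF2 with GTP, had a median log2 fold change of -0.20, and of 0.00 with scaling by total counts alone. EIF2B3, the γ subunit of the catalytic subcomplex, had 13.2 and 11.9 CPM in Rib_CA libraries, against 24.7 and 21.6 CPM in DMSO libraries (log2 fold change -0.89 ± 0.29, adjusted p = 0.106 by edgeR's quasi-likelihood test). After the GC and length correction EIF2B3 was at -1.17 and was not called. EIF2B5, the catalytic ε subunit of the same subcomplex, had 170.7 and 125.2 CPM in Rib_CA libraries and 112.4 and 126.5 CPM in DMSO libraries, which overlap. Among the regulatory subunits, EIF2B2 (β) had a log2 fold change of -0.78, EIF2B4 (δ) of -0.20 and EIF2B1 (α) of -0.04. About 14.8% of the exonic bases of EIF2B1 are shared with DDX55 on the opposite strand, and the use of strand in counting is not given in the sources used here.

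Of the pair of factors that can deliver initiator tRNA without eIF2, EIF2A fell and EIF2D was not called. EIF2A (ENSG00000144895, chr3:150546678-150584242, GRCh38, plus strand) had 41.0 and 45.7 CPM in Rib_CA libraries, against 102.5 and 97.2 CPM in DMSO libraries. The libraries of each group were close together, with means of 43.3 ± 3.36 in Rib_CA and 99.8 ± 3.79 in DMSO (SD, n = 2 each). EIF2A was 2.30-fold lower, a log2 fold change of -1.20 ± 0.25 with an adjusted p of 0.0420 by edgeR's quasi-likelihood test. The value was -0.85 after the GC and length correction (adjusted p = 0.111), -1.17 without DMSO replicate 1 (adjusted p = 0.257) and -1.24 without DMSO replicate 2 (adjusted p = 0.207). Scaling by total counts alone gave -1.0 (adjusted p = 0.0915). EIF2D, also known from ribosome recycling, had 73.9 and 84.2 CPM in Rib_CA libraries, against 61.5 and 47.0 CPM in DMSO libraries (log2 fold change 0.54 ± 0.27, adjusted p = 0.242 by edgeR's quasi-likelihood test). After the GC and length correction EIF2D was at 0.94 and was not called.

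The 14 genes of eIF3, the multi-subunit complex that holds the small subunit, eIF4G and mRNA together, included 2 that fell and 12 that did not pass. Those 2 are 14.3%, against 5.11% of all genes called lower. By edgeR, 5 of the 14 had an unadjusted p under 0.05 (35.7%, against 28.4% of all genes). DESeq2, which called 18.7% of all genes, called 5 of the 14, all as lower. The median log2 fold change of the 14 genes was -0.23, against 0.03 over all genes, with 9 negative and 5 positive values. That median was -0.61 without Rib_CA replicate 1 and 0.01 without Rib_CA replicate 2, so its sign turned without that library. EIF3A encodes the largest subunit, on which the rest of the complex is built. EIF3A (ENSG00000107581, chr10:119033670-119080823, GRCh38, minus strand) had 291.6 and 202.3 CPM in Rib_CA libraries, against 836.1 and 836.3 CPM in DMSO libraries. The DMSO libraries were almost equal and the Rib_CA libraries spread more widely, with means of 246.9 ± 63.2 in Rib_CA and 836.2 ± 0.145 in DMSO (SD, n = 2 each). EIF3A was 3.39-fold lower, a log2 fold change of -1.76 ± 0.30 with an adjusted p of 0.0296 by edgeR's quasi-likelihood test. It was -1.18 after the GC and length correction (adjusted p = 0.101), -1.77 without DMSO replicate 1 (adjusted p = 0.0955) and -1.76 without DMSO replicate 2 (adjusted p = 0.0719).

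EIF3M, a subunit of the PCI and MPN core, lay at the threshold. EIF3M (ENSG00000149100, chr11:32583798-32606262, GRCh38, plus strand) had 80.7 and 68.2 CPM in Rib_CA libraries, against 174.7 and 151.9 CPM in DMSO libraries. The means were 74.5 ± 8.84 in Rib_CA and 163.3 ± 16.2 in DMSO (SD, n = 2 each), a 2.19-fold lower level. Its log2 fold change of -1.13 ± 0.26 had an adjusted p of 0.04999 by edgeR's quasi-likelihood test. The GC and length correction moved it to -0.43 (adjusted p = 0.412), a 1.34-fold lower level. It was -1.03 without DMSO replicate 1 (adjusted p = 0.323) and -1.23 without DMSO replicate 2 (adjusted p = 0.203). Scaling by total counts alone gave -0.95 (adjusted p = 0.0893). EIF3M shares 9.99% of its exonic bases with CCDC73 on the opposite strand.

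EIF3H and EIF3E, 2 further subunits of the PCI and MPN core, had log2 fold changes near that of EIF3M without passing. EIF3H had 160.3 and 137.1 CPM in Rib_CA libraries, against 307.1 and 341.5 CPM in DMSO libraries (-1.12 ± 0.26, adjusted p = 0.0516 by edgeR's quasi-likelihood test). EIF3E had 116.0 and 188.0 CPM in Rib_CA libraries, against 348.6 and 282.8 CPM in DMSO libraries (-1.05 ± 0.32, adjusted p = 0.0960 by edgeR's quasi-likelihood test). The core subunit EIF3L and the peripheral subunit EIF3J were also below the DMSO pair in both Rib_CA libraries, at -0.71 and -0.52. EIF3H and EIF3E were named here for their closeness to the threshold, after their values were seen.

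At the other end of the complex, EIF3K, a PCI subunit, had 115.1 and 101.3 CPM in Rib_CA libraries, against 77.2 and 76.5 CPM in DMSO libraries. Its log2 fold change of 0.49 ± 0.25 was the highest among eIF3 genes and did not pass (adjusted p = 0.239 by edgeR's quasi-likelihood test). After the GC and length correction EIF3K was at -0.05, and EIF3F was the highest, at 1.04. EIF3I, a WD40 subunit, also lay above the DMSO pair in both libraries, at 0.30. The libraries overlapped for EIF3B, EIF3C, EIF3CL, EIF3D, EIF3F and EIF3G, whose log2 fold changes ran from -0.24 to 0.39. EIF3C and EIF3CL are near-identical copies, so their levels of 226.5 to 380.7 CPM and 207.4 to 360.0 CPM may hold each other's reads.

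In the eIF4F complex the cap-binding and helicase genes were not called, and of the scaffolds only EIF4G3 was called, as lower. EIF4E, the cap-binding protein, had 38.3 and 41.3 CPM in Rib_CA libraries, against 63.0 and 55.0 CPM in DMSO libraries (log2 fold change -0.57 ± 0.26, adjusted p = 0.207 by edgeR's quasi-likelihood test). Its sign turned to 0.51 after the GC and length correction. EIF4E2, which binds caps without recruiting ribosomes and so represses, had 63.6 and 59.2 CPM in Rib_CA libraries and 34.4 and 49.9 CPM in DMSO libraries (0.54 ± 0.29). EIF4E3 was sparse, at 2.25 and 3.35 CPM in Rib_CA libraries and 2.91 and 2.25 CPM in DMSO libraries. EIF4E1B had 0 counts in all 4 libraries, which allows a level of up to 0.0863 CPM without TMM scaling (3 counts in the shallowest library).

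EIF4A1, the main helicase of eIF4F, had 230.1 and 311.5 CPM in Rib_CA libraries, against 184.2 and 141.1 CPM in DMSO libraries (log2 fold change 0.74 ± 0.29, adjusted p = 0.159 by edgeR's quasi-likelihood test). The pairs did not overlap, but 29.8% of its exonic bases are shared with the read-through gene SENP3-EIF4A1 on the same strand. EIF4A2, its close copy, had 166.4 and 188.5 CPM in Rib_CA libraries and 292.3 and 174.4 CPM in DMSO libraries, which overlap (-0.40 ± 0.32). Its sign turned to 0.31 after the GC and length correction and to 0.02 without DMSO replicate 1. EIF4H and EIF4B, which stimulate the helicase, had log2 fold changes of 0.68 and 0.56. EIF4A3, the family member of the exon junction complex, had 0.41. None of these 5 genes was called by edgeR, DESeq2 or limma-voom. By edgeR, 2 of the 5 (EIF4A1 and EIF4H) had an unadjusted p under 0.05, against 28.4% of all genes.

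EIF4G3 encodes eIF4GII, a scaffold that bridges eIF4E, eIF4A and eIF3. EIF4G3 (ENSG00000075151, chr1:20806292-21176888, GRCh38, minus strand) had 65.4 and 55.2 CPM in Rib_CA libraries, against 181.6 and 159.4 CPM in DMSO libraries. The pairs lay far apart relative to their spread, with means of 60.3 ± 7.22 in Rib_CA and 170.5 ± 15.7 in DMSO (SD, n = 2 each). It was 2.83-fold lower, a log2 fold change of -1.50 ± 0.26 with an adjusted p of 0.0297 by edgeR's quasi-likelihood test. It was -1.18 after the GC and length correction (adjusted p = 0.0814), -1.41 without DMSO replicate 1 (adjusted p = 0.144) and -1.59 without DMSO replicate 2 (adjusted p = 0.0730).

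EIF4G1, the major scaffold, had 1950 and 737.5 CPM in Rib_CA libraries and 1216 and 1556 CPM in DMSO libraries. The Rib_CA libraries lay on either side of the DMSO pair, so the log2 fold change of -0.04 ± 0.48 rests on a wide spread rather than on equal values. It was -0.96 without Rib_CA replicate 1 and 0.49 without Rib_CA replicate 2. EIF4G2, a scaffold that lacks the eIF4E-binding region and serves cap-independent initiation, had 406.5 and 482.2 CPM in Rib_CA libraries, against 920.8 and 880.4 CPM in DMSO libraries. Both Rib_CA libraries lay well below the DMSO pair, a 2.03-fold lower mean level in the fit, and the log2 fold change of -1.02 ± 0.27 did not pass (adjusted p = 0.0704 by edgeR's quasi-likelihood test). After the GC and length correction EIF4G2 was at -0.31, a 1.24-fold lower level.

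The 4 genes of proteins that bind and restrain eIF4E were not called by edgeR. By that test 1 of them (EIF4EBP1) had an unadjusted p under 0.05 (25%, against 28.4% of all genes). That gene was called as higher by DESeq2, which called 18.7% of all genes. EIF4EBP1, the best known mTORC1 target of the family, had 228.4 and 159.0 CPM in Rib_CA libraries, against 95.1 and 84.0 CPM in DMSO libraries. The pairs were apart, and the log2 fold change was 1.11 ± 0.29 with an adjusted p of 0.0663 by edgeR's quasi-likelihood test, and 0.30 after the GC and length correction. EIF4EBP2 had 137.2 and 126.3 CPM in Rib_CA libraries, against 170.0 and 212.6 CPM in DMSO libraries (-0.54 ± 0.26, and 0.02 after the correction). EIF4EBP3 had only 13 and 12 counts in Rib_CA libraries and 9 and 2 counts in DMSO libraries, and 73.4% of its exonic bases lie in a read-through gene. EIF4ENIF1, the shuttling partner of eIF4E, was at -0.30.

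The genes of subunit joining gave the largest fall of the set and a value in the other direction that did not pass. EIF5B (ENSG00000158417, chr2:99337353-99401326, GRCh38, plus strand) had 57.2 and 37.7 CPM in Rib_CA libraries, against 251.1 and 229.4 CPM in DMSO libraries. Every Rib_CA value was far below both DMSO values, with means of 47.4 ± 13.8 in Rib_CA and 240.3 ± 15.4 in DMSO (SD, n = 2 each). EIF5B was 5.07-fold lower, a log2 fold change of -2.34 ± 0.31 with an adjusted p of 0.0285 by edgeR's quasi-likelihood test. Leaving out 1 library at a time gave falls of 4.21-fold to 6.56-fold, all called. The GC and length correction brought it to 2.98-fold lower with an adjusted p of 0.0986. REV1 shares 10.8% of the exonic bases of EIF5B on the opposite strand.

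EIF6, which keeps large subunits from joining too early and takes part in making them, had 524.0 and 355.4 CPM in Rib_CA libraries, against 205.5 and 187.8 CPM in DMSO libraries. Both Rib_CA values were above both DMSO values, and the log2 fold change was 1.16 ± 0.30 with an adjusted p of 0.0642 by edgeR's quasi-likelihood test. After the GC and length correction it was 0.47, and scaling by total counts alone gave 1.34 with an adjusted p of 0.0471 by the same test. EIF6 shares 17.4% of its exonic bases with another gene on the same strand. The eIF5A proteins, which carry hypusine and act mainly in elongation, overlapped between groups for all 3 genes, and none was called by any of the 3 tools. EIF5A had 607.8 and 347.5 CPM in Rib_CA libraries and 369.9 and 309.0 CPM in DMSO libraries (log2 fold change 0.49 ± 0.34). It was at -0.17 after the GC and length correction and at 0.00 without Rib_CA replicate 1. EIF5AL1, a near-identical copy of EIF5A, was at 7.91 and 1.95 CPM in Rib_CA libraries and 5.77 and 5.83 CPM in DMSO libraries. EIF5A2 had a log2 fold change of 0.20, and EIF1AD, which the naming rule also takes in, of -0.61.

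**Figure D3:**
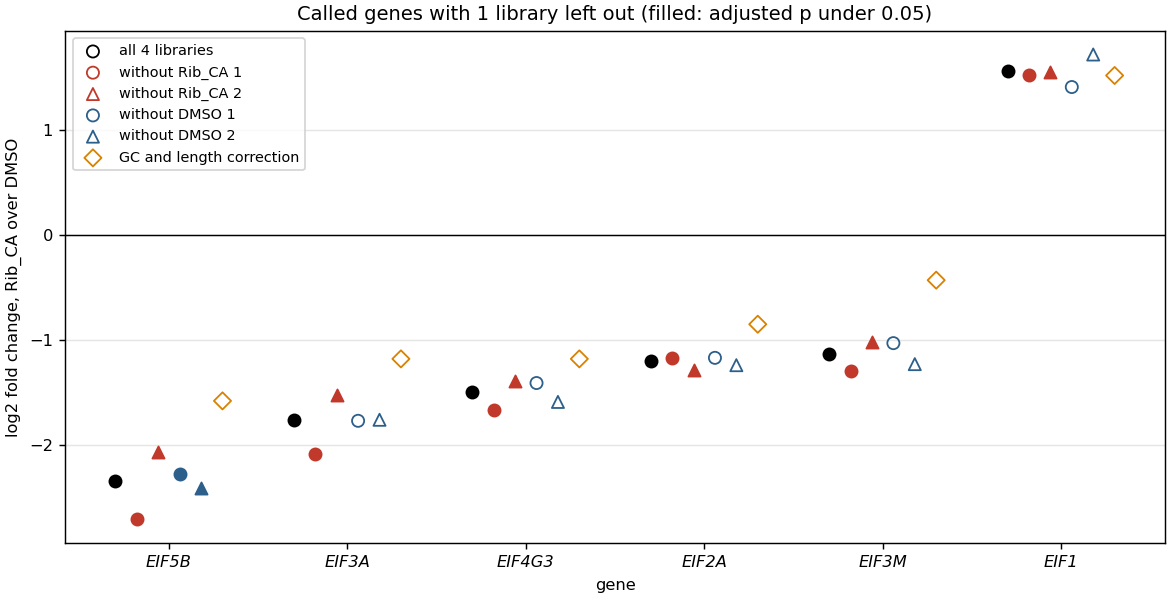
Log2 fold change of Rib_CA over DMSO for the 6 called genes with all 4 libraries, with each library left out in turn and after the GC and length correction, filled where the adjusted p was under 0.05. All points of a gene keep one sign, and EIF5B is the gene filled in all 4 fits that leave out a library, from -2.71 to -2.07.

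Many mRNAs of the translation machinery begin with a 5′ terminal oligopyrimidine (TOP) tract, a C at the cap followed by a run of pyrimidines, through which mTORC1 and LARP1 control their translation. RefSeq windows around the start site (GRCh38.p14) were found for 44 of the 52 genes, and 10 of these genes had several starts. EIF2S2, EIF3A, EIF3CL, EIF3E, EIF3G, EIF3H, EIF3L and EIF4EBP1 had no entry. A C followed by at least 4 pyrimidines at the annotated start was present in 10 of 44 genes (22.7%), against 5.14% of 27305 genes in the same table. The first 20 transcribed bases of these genes are shown because the tract ties them to one another by sequence, with the tract in capitals.
EIF2A: CTCTTTCCgggacaacatgg
EIF2D: CCTTTTCgcggccgggcccc
EIF2S3: CTCTTTTggcaacatggcgg
EIF2S3B: CTCTTTTggcaacatggcgg
EIF3D: CTCTTTTCCTggtttctcaa
EIF3F: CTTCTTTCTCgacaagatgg
EIF3K: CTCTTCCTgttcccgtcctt
EIF3M: CTTTTCCggtcggcgtggtc
EIF4A2: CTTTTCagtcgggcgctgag
EIF4B: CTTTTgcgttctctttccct
EIF2A and EIF3M, which fell, are among them, and EIF4B has the shortest tract. EIF2S3 and its copy EIF2S3B have the same 20 bases. The 9 tested genes with a tract had 5 positive and 4 negative log2 fold changes and a median of 0.27, so they did not share a direction. An annotated start need not be the start used in these cells, and the letters alone do not make a TOP mRNA.

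The 300-base windows were also searched on both strands for 6 motifs, as a description. CACGTG, the E-box bound by MYC, was in 11 of 44 genes (25%), against 8.77% of all 27305 genes. CCGGAAG, bound by ETS factors, was in 12 genes (27.3%), against 12.2%, and CCAAT, bound by NF-Y, in 19 genes (43.2%), against 39.7%. TATAAA was in 2 genes (4.55%), against 14% of all genes. TGATGNAA, a core of ATF4 elements, was in EIF4E3 alone (2.27%), against 4.46%, and the cyclic AMP response element TGACGTCA was in none, against 2.25%. Of the called genes, EIF1 held CCAAT, EIF2A and EIF3M held both CCAAT and CCGGAAG, and EIF4G3 and EIF5B held no match, while EIF3A had no window.

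The fold changes of the initiation factor genes ran with the make-up of their transcripts. Across the 49 tested genes, Spearman's rho of the log2 fold change was 0.46 with GC content and -0.43 with transcript length, values that share the same 4 libraries. Over 13651 genes the values were 0.48 and -0.34. The 5 genes that fell had GC contents of 38.0% to 46.0% and lengths of 2198 to 6646 bases, beside medians of 45.8% and 3695 bases over the tested initiation factor genes. The 20 genes under 45% GC had a median log2 fold change of -0.46, against -0.44 for all genes under 45%. The 29 genes at 45% or more had a median of 0.27, equal to that of all such genes. Of all genes under 45% GC, 12.1% were called lower, against 0.925% of genes at 45% or more. After the correction rho over the 49 genes was -0.16 with GC content and 0.11 with length. Over all genes it was -0.02 and 0.02, which follows from the correction, since it is fitted to remove these trends.

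**Figure D4:**
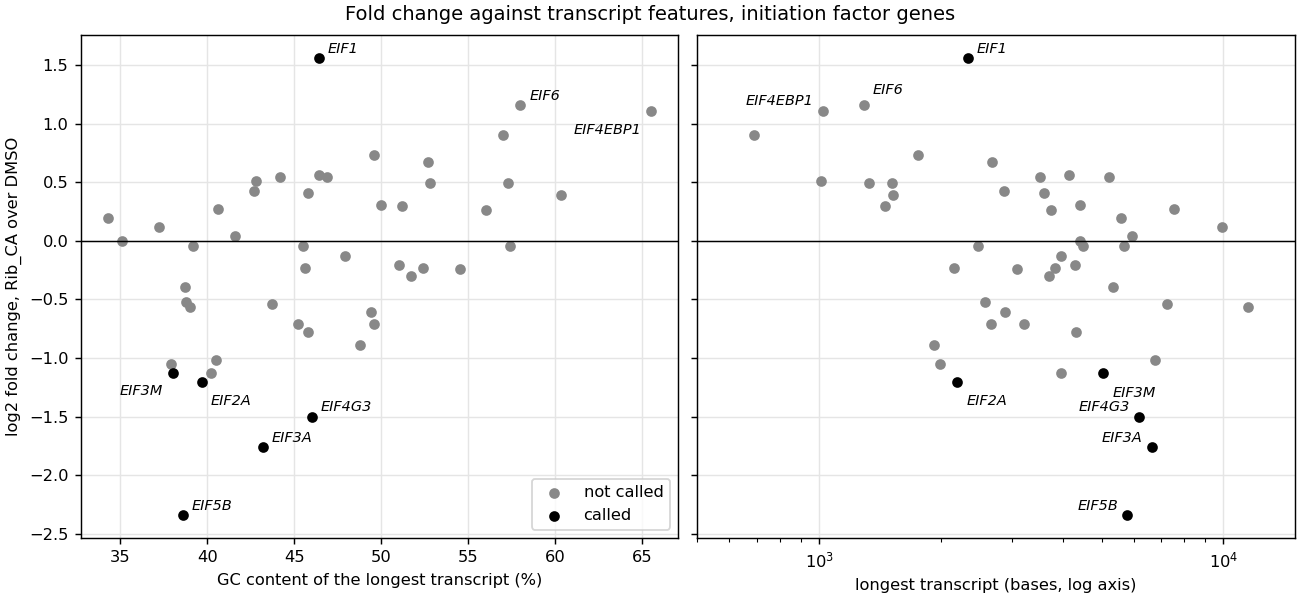
Log2 fold change of Rib_CA over DMSO for the 49 tested genes against the GC content and the length of the longest transcript, with called genes in black and named. The genes that fell lie between 38.0% and 46.0% GC, and EIF1, which rose, has 46.4% GC.

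Genes of the set were paired by family or by role, and the log2 ratio of their counts within a library does not depend on how libraries are scaled. Among 10 such pairs the ratios of Rib_CA and DMSO libraries did not overlap for 7. The share of 58.8% over all genes tested is for levels of single genes, and no such share was taken over ratios. The pairs are not independent, since EIF4G1 and EIF4E each enter several. These ratios are given as descriptions, since the smallest two-sided p of an exact permutation test of 2 against 2 libraries is 0.333. The log2 ratio of EIF2D to EIF2A was 0.85 and 0.88 in Rib_CA libraries, against -0.74 and -1.05 in DMSO libraries. The ratio of counts, not corrected for length, was thus above 0 in both Rib_CA libraries and below 0 in both DMSO libraries. The difference of 1.76 was the largest of the 10, stayed between 1.60 and 1.91 with any library left out, and was 1.80 after the GC and length correction.

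The log2 ratio of EIF1 to EIF1B was 4.30 and 4.26 in Rib_CA libraries, against 3.03 and 3.41 in DMSO libraries. Its difference of 1.06 was 0.96 after the correction, so this ratio changed little with it. The log2 ratio of EIF4G3 to EIF4G1 was -4.90 and -3.74 in Rib_CA libraries and -2.74 and -3.29 in DMSO libraries, a difference of -1.30 that was -0.81 after the correction. The correction took most of the difference from EIF4EBP1 over EIF4EBP2 (1.62, and 0.27 after it), EIF4E2 over EIF4E (1.13, and 0.14) and EIF4A2 over EIF4A1 (-1.08, and -0.06). The remaining pair with no overlap was EIF4E3 over EIF4E, at 0.66 and 0.59 after it.

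**Figure D5:**
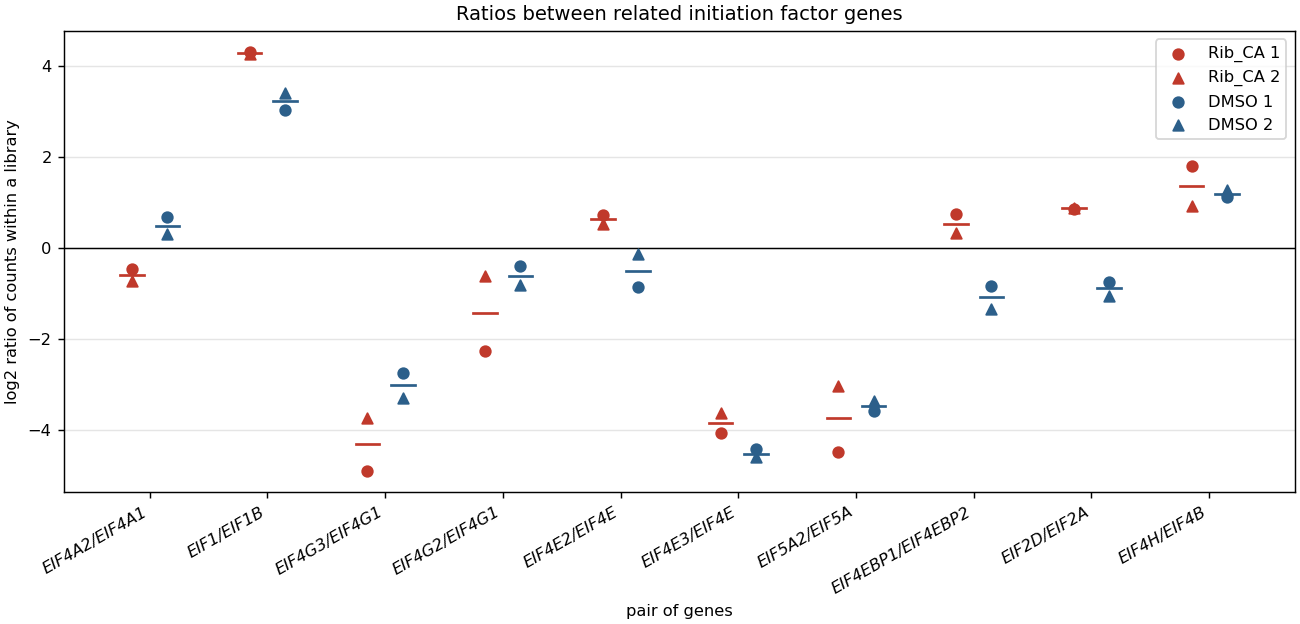
Within-library log2 ratio of counts for 10 pairs of genes matched by family or by role, with Rib_CA libraries in red and DMSO libraries in blue. The pairs EIF2D over EIF2A and EIF1 over EIF1B keep differences of 1.80 and 0.96 after the GC and length correction.

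Genes that work beside the initiation factors were read from the same fit. Of 19 initiation partners and regulators, 3 fell and 16 did not pass, with 5 of the 19 at an unadjusted p under 0.05 (26.3%, against 28.4% of all genes). Over all genes 5.11% were called lower. Neither edgeR, DESeq2 nor limma-voom called any as higher. DDX3X, a helicase that aids scanning through structured leaders, had 57.5 and 33.0 CPM in Rib_CA libraries, against 302.7 and 200.9 CPM in DMSO libraries (5.57-fold lower, adjusted p = 0.0285 by edgeR's quasi-likelihood test). It was called with any library left out. DHX29, a helicase of the small subunit with a like task, had 17.8 and 22.0 CPM in Rib_CA libraries, against 75.7 and 51.4 CPM in DMSO libraries (3.20-fold lower). GIGYF2, which works with EIF4E2 in repression, had 36.4 and 41.5 CPM in Rib_CA libraries, against 101.6 and 85.3 CPM in DMSO libraries (2.40-fold lower). Their adjusted p was 0.0338 and 0.0420 by edgeR's quasi-likelihood test, and no gene of the whole table was called by it after the GC and length correction. With that correction DDX3X was 3.0-fold, DHX29 2.12-fold and GIGYF2 1.77-fold lower. DHX29 was not called without DMSO replicate 1 (log2 fold change -1.38, adjusted p = 0.191), and GIGYF2 was not called without DMSO replicate 1 (-1.14, adjusted p = 0.280) or DMSO replicate 2 (-1.38, adjusted p = 0.149).

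None of the 6 genes for eIF2α kinases and phosphatase subunits was called by edgeR or limma-voom, while 4 had an unadjusted p under 0.05, against 28.4% of all genes. DESeq2 called 1 of the 6 as higher and 2 as lower, and it called 18.7% of all genes. PPP1R15A, the inducible subunit of the eIF2α phosphatase, had 1898 and 752.2 CPM in Rib_CA libraries, against 274.4 and 399.0 CPM in DMSO libraries. Both Rib_CA libraries were higher but far apart, and its log2 fold change of 1.98 ± 0.49 had an adjusted p of 0.0593 by edgeR's quasi-likelihood test. It was 1.11 without Rib_CA replicate 1, 2.49 without Rib_CA replicate 2, 1.73 without DMSO replicate 1 and 2.27 without DMSO replicate 2. After the GC and length correction PPP1R15A was at 1.43 (adjusted p = 0.115 by edgeR's quasi-likelihood test). EIF2AK1 (HRI) and EIF2AK2 (PKR) both stood at -1.02 with an adjusted p of 0.0614 by the same test. After the GC and length correction EIF2AK1 was at -0.87 and EIF2AK2 at -0.05.

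None of the 9 elongation factor genes was called by edgeR, DESeq2 or limma-voom. By edgeR, 0 had an unadjusted p under 0.05, against 28.4% of all genes. Positive values were found for 7 of the 9, with a median log2 fold change of 0.39, and of 0.09 after the GC and length correction. EEF1G and EEF1D, subunits of the exchange factor of eEF1A, were at 0.59 ± 0.31 and 0.48 ± 0.26. Of 7 release and recycling genes 1 fell, against 5.11% of all genes called lower. By edgeR, 4 of the 7 had an unadjusted p under 0.05, against 28.4% of all genes. DESeq2, which called 18.7% of all genes, called 3 of the 7 as lower (ABCE1, GSPT1 and HBS1L), and limma-voom called ABCE1. ABCE1, the ATPase that splits ribosomes after termination, had 59.4 and 40.4 CPM in Rib_CA libraries, against 130.2 and 129.3 CPM in DMSO libraries (2.60-fold lower, adjusted p = 0.0421 by edgeR's quasi-likelihood test, and -0.73 on the log2 scale after the correction). It was not called without DMSO replicate 1 (log2 fold change -1.38, adjusted p = 0.170) or DMSO replicate 2 (-1.39, adjusted p = 0.149).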

How the data were processed

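Messenger RNA libraries from MDA-MB-231 cells (2 Rib_CA, 2 DMSO, 24 h) were prepared using the Hieff NGS MaxUp Dual-mode kit, per the labels' protocols. The authors deposited raw counts per gene for 20263 human Ensembl gene IDs, not normalised. GRCm38 and mm10, both mouse, are the builds in the submitters' processing notes. Since the IDs are human, the build behind the counts is not settled. Not given in the sources used here are the aligner, the counter, its strand setting and its handling of reads shared by several genes. The initiation factor genes and the other lists were chosen with earlier results of these data known.

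A gene name table gave symbols for 20148 IDs. Gene limits, and the length and GC content of the longest transcript, came from GENCODE release 29 (GRCh38), which held 20224 IDs. The test was edgeR 4.0.16 in R 4.3.3, with filterByExpr (minimum count 10, minimum total 15), TMM scaling, glmQLFit (robust) and glmQLFTest, Rib_CA over DMSO, 2 residual degrees of freedom, Benjamini-Hochberg adjustment over 13667 genes, threshold 0.05. Standard errors were the size of the log2 fold change over the square root of its F statistic. The GC and length correction fitted a smooth of both to each library's log counts (mgcv 1.9.3, 6 basis functions each) and entered it as an offset. Pair ratios used a pseudocount of 0.5 counts. The fit was tested on simulated data with known changes in 200 genes, and it recovered 77.1% of 4-fold and 100% of 16-fold changes. Simulated counts were drawn independently for each gene from the fitted dispersions, without a trend with GC content or length. Recovery in the real libraries, which hold such trends, may therefore differ. The biological coefficient of variation was 0.314. Libraries of a group differed by far more than counting noise (chi-square 265.3 times its degrees of freedom in Rib_CA and 256.6 times in DMSO).

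Per-library values are given for every called gene, for the genes with the highest and the lowest log2 fold change of each role group, and for EIF4E, EIF4G1, EIF4A1, EIF2S1, EIF4EBP1 and EIF6. Other genes named with values were added to give the whole set. Of each further list, the called genes are named, or otherwise genes with the smallest p. Alternatives included DESeq2 1.42.0, limma-voom (limma 3.58.1), other scalings and filters, a replicate term and the leaving out of each library.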

Additional observations from a re-analysis of the deposited data

How the results depend on the processing

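Calls are given as higher and lower, 1 and 5 initiation factor genes, 0 and 4 other translation genes and 275 and 699 of all genes as reported. Scaling by total counts alone gave 2 and 3, 1 and 1, and 260 and 328, with a median log2 fold change of 0.15 for the initiation factor genes. No filter on low counts gave 2 and 6, 1 and 6, and 448 and 876. A filter of at least 5 CPM in 2 libraries gave 2 and 6, 1 and 6, and 418 and 808. DESeq2 gave 3 and 11, 1 and 9, and 1043 and 1514. The GC and length correction gave 0 in both directions for each set, alone and with a replicate block, and the cause was not tested. DESeq2 size factors, limma-voom and leaving out mitochondrially encoded genes kept these counts within 1.5 times. Leaving out each library in turn gave 0 to 4 and 1 to 10 initiation factor genes, 0 to 2 and 1 to 11 other translation genes, 36 to 1234 and 137 to 1634 of all genes, and a median of -0.15 to 0.02 for the initiation factor genes; the lone library left in a group was assumed to vary like the other group.

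The labels give both groups replicate numbers 1 and 2 without saying that a number marks a shared culture or day, and same-numbered libraries deviated from their group means with a correlation of -0.147. A replicate block gave 1 and 3 initiation factor genes, 1 and 4 other translation genes and 260 and 687 of all genes. EIF2A (adjusted p = 0.0619) and EIF3M (adjusted p = 0.0790) were not called under it. A crossed pairing of the numbers, chosen after seeing the data, gave 3 and 8, 1 and 8, and 724 and 1267. The 24 genes picked by the rule for per-library values had 360 values under alternatives, and 318 stayed on their side of the threshold. EIF3H, EIF3E and EIF4G2, which DESeq2 called and edgeR did not, were not among these genes. In 20 of the 360, from 8 genes that were not called, the sign turned, not counting EIF1AX at 0.00, and no called gene turned sign. Of 60 values for gene pairs, 54 moved by less than the spread between replicates, and the other 6 all came from the GC and length correction. With 2 libraries in a group, leaving 1 out cannot move a difference by more than that spread. Those values could therefore not count as moved, even where EIF5A2 over EIF5A went from -0.28 to 0.45 without Rib_CA replicate 1. At this depth, small differences in EIF4EBP3, EIF2S3B and EIF4E1B were not detectable. With 2 libraries in a group, changes of 4-fold or less in other genes could also be missed.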
